A study of Mus musculus with 16 samples.

Results

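Ki-67, the protein made from Mki67, is a nuclear protein that dividing cells carry and resting cells lack, and it is read in pathology as a measure of proliferation. Here 16 mouse small cell lung cancers were ranked by their Mki67 mRNA, and the 5 tumors of highest level were set against the 5 of lowest level. The 10 tumors were selected on Mki67 CPM (a gene's estimated count divided by the column sum and scaled to 1000000), with both mutated genes pooled, and the 6 tumors between them were kept apart. Mki67 itself is therefore a description and was not tested. The question was which genes outside the cell cycle went with proliferation in these tumors.

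All 16 tumors had the genotype Trp53-/-; Rb1-/- and the strain background mixed C57BL/6;129/Sv. CRISPR had mutated p107 (gene Rbl1) in 8 of them and p130 (gene Rbl2) in the other 8. A tumor's name, taken from its title, starts with the guide (sgp107 or sgp130) and goes on with a number read as the mouse (4 mice for p107 and 3 for p130) and the tumor of that mouse (T1 to T5). No sample without a CRISPR mutation was analysed here, and neither the age of the mice nor the Cre that started the tumors is given in the sources used here. The tumors were frozen whole, so RNA of stroma, blood and lung is part of each value. In such bulk samples fewer cells of a type and less RNA per cell cannot be told apart.

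In a normal cell RB1 and its relatives p107 and p130 hold E2F transcription factors in check. With the MuvB core, p107 and p130 also form the DREAM complex, which keeps cell cycle genes silent in resting cells. In dividing cells the same MuvB core works with B-MYB and FOXM1 at a promoter element called the cell cycle genes homology region (CHR) to switch on genes of G2 and mitosis. Genes of G1/S and DNA replication are read mainly through E2F sites. Small cell lung cancer is a fast-growing neuroendocrine tumor that has usually lost both RB1 and p53.

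The 5 highest tumors ran from 1439.7 to 1922 CPM of Mki67, and they were sgp130_6637T3, sgp107_6627T2, sgp130_6637T2, sgp107_6631T1 and sgp107_6627T1. The 5 lowest ran from 649 to 970.0 CPM, and they were sgp130_6638T5, sgp107_6629T1, sgp107_6631T2, sgp107_6629T2 and sgp130_6637T1. Just outside the upper limit lay sgp107_6630T2 with 1397 CPM, and just outside the lower limit lay sgp130_6638T3 with 975 CPM. The lower limit therefore divided tumors of almost the same level. Each group held 3 p107 and 2 p130 tumors, and each held 3 tumors with Kdm5d, a Y-linked gene, above 5 CPM. The high tumors came from 3 mice and the low tumors from 4, and the mice sgp107_6631 and sgp130_6637 each had tumors in both groups. Tumors of 1 mouse are not independent, and the main test took no account of the mouse. Its p-values can be too small where a mouse gave several tumors to only 1 group (sgp107_6627 and sgp107_6629). They can be too large where a mouse lies in both groups, and the net effect was not tested.

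**Figure D1:**
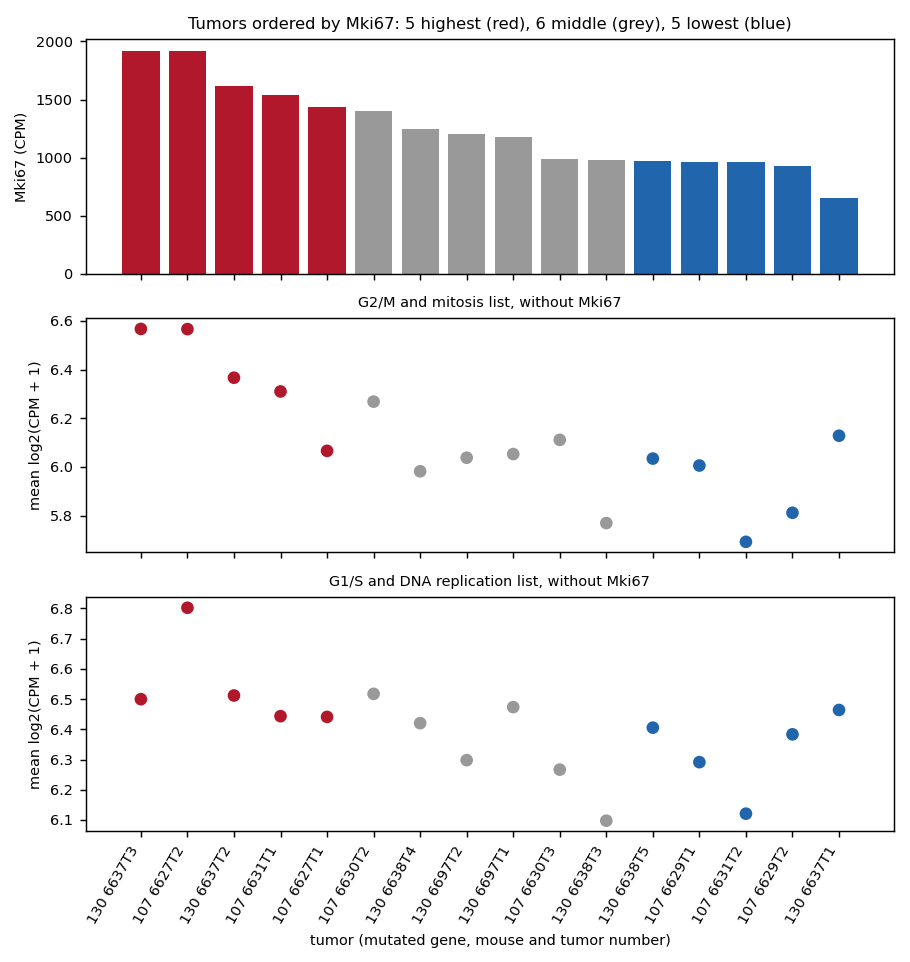
Mki67 in CPM (top, bars from 0) and the mean log2(CPM + 1) of the G2/M and G1/S gene lists without Mki67 (points) in each of the 16 tumors, ordered by Mki67. Red marks the 5 highest, grey the 6 middle and blue the 5 lowest tumors, and the lowest tumor by Mki67, sgp130_6637T1, sits among the middle tumors on the G2/M score (6.13).

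Total counts ran from 12700334 to 34620979 per tumor, with means of 16589014 in the high and 20957150 in the low tumors (exact two-sided permutation p = 0.302 over all splits into 5 and 5, whose smallest possible p is 0.00794). Rb1 and Trp53 mRNA were still counted, with means of 541 ± 143 and 360 ± 134 CPM for Rb1 and of 20.2 ± 1.98 and 27.1 ± 8.36 CPM for Trp53 in the high and low tumors (SD, n = 5 each). The ribosomal transcript Rn45s held 2.22% of counts in the high and 2.23% in the low tumors on average (exact permutation p = 1.0). The targeted Rbl2 lay between 15.6 and 54.3 CPM in p130 tumors and between 55.3 and 127 CPM in p107 tumors. Rbl1 lay between 64.2 and 246 CPM in p107 tumors and between 60.5 and 120 CPM in p130 tumors, and the ranges overlapped. The small cell marker Insm1 lay between 233 and 592 CPM, Chga between 268 and 1750 CPM and Syp between 129 and 503 CPM over the 16 tumors. Some results rest on sgp107_6627T1 in the high group, with the epithelial gene Cdh1 at 26.2 CPM, or on sgp107_6631T2 in the low group, with the highest T and B cell scores. The T cell receptor component Cd3g was at 12.9 CPM in sgp107_6631T2 and at 1.17 CPM or less in each of the other tumors.

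Across 14841 genes no gene passed an adjusted p of 0.05 in edgeR's quasi-likelihood test (0.0% called), and the smallest adjusted p was 0.1. Without adjustment, 1045 genes had p under 0.05, of which 564 (3.8% of those tested) were higher and 481 (3.24%) lower in the high-Mki67 tumors. DESeq2 called 61 genes on the same tumors, 47 of them higher, and 1512 without adjustment. With log2 Mki67 as a covariate over all 16 tumors, edgeR called 5 genes, which were Tubb6, Foxm1, Ttk, Ckap2 and Smc4. The groups did not overlap for 120 genes with all high tumors above all low tumors (0.809%) and for 71 genes with all of them below (0.478%). Over all tested genes, 45.6% lay higher and the median log2 fold change was -0.04.

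Cell cycle genes outside Mki67 followed the ranking mainly in mitosis. Of 194 tested genes of G2/M and mitosis, 185 lay higher in the high-Mki67 tumors, with a median log2 fold change of 0.43 (0.37 to 0.53 when single tumors were left out). Of these, 68 had an unadjusted p under 0.05 and higher values, none had lower values, and 19 did not overlap between groups. Of 148 genes of G1/S and replication, 114 lay higher, with a median of 0.18 (0.11 to 0.25 when single tumors were left out, and 0.10 without mouse sgp107_6627), and 25 had an unadjusted p under 0.05, of which only Ccnd1 was lower. Without both tumors of mouse sgp107_6627 the counts that lay higher were 182 of 194 and 99 of 148. Of 37 replication-type histone genes, 29 lay higher, with a median of 0.37 (0.22 to 0.62 when single tumors were left out, and 0.61 without mouse sgp107_6627). Mki67 is itself a gene of the late cycle phases.

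Foxm1, which drives mitotic genes, was at 189, 209, 150, 148 and 214 CPM in the high tumors in ranking order, and at 89.9, 81.9, 83.8, 81.5 and 72.7 CPM in the low tumors. The groups did not overlap, and the log2 fold change was 1.14 ± 0.15 (SE, 5 against 5 tumors, adjusted p = 0.1 in edgeR). Smc4, a core subunit of condensin, was at 912, 923, 773, 669 and 746 CPM in the high and at 374, 423, 405, 370 and 385 CPM in the low tumors. Here too every high tumor lay above every low tumor, with a log2 fold change of 1.03 ± 0.14 (adjusted p = 0.1 in edgeR). Ncapd2, another condensin subunit, had means of 439 ± 51.7 and 259 ± 31.4 CPM (SD, n = 5 each). Ckap2, a spindle protein, had means of 201 ± 49 and 104 ± 19 CPM, and Kif4, a chromosome-bound kinesin, 163 ± 24.4 and 99.9 ± 13.8 CPM. These genes did not overlap between groups either, nor did 2700099C18Rik, a gene model of the G2/M list, with 32.9 ± 9.13 and 15.5 ± 3.09 CPM. All of them, like Ccnd1 below, were picked by smallest p in the cell cycle lists, so a lack of overlap was largely built in. The kinesin Kifc1 had means of 131 and 76.6 CPM, which are uncertain because a near-identical copy, Kifc5b, is also in the table. Hmgb2, a chromatin protein abundant in dividing cells, had means of 911 ± 195 and 433 ± 158 CPM.

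Several genes of the replication fork overlapped fully between the groups. Pcna, the sliding clamp of the replication fork, was at 703, 933, 652, 546 and 693 CPM in the high and at 719, 746, 492, 549 and 849 CPM in the low tumors. The groups overlapped throughout, with means of 705 ± 142 and 671 ± 147 CPM (SD, n = 5 each; log2 fold change 0.06 ± 0.20). The replicative helicase subunits Mcm5 and Mcm2 had log2 fold changes of 0.11 ± 0.28 and 0.03 ± 0.14. The tumor of lowest Mki67, sgp130_6637T1, ranked 2 of 16 for Pcna (849 CPM) and for Mcm5 (225 CPM), and 3 for Cdk1 (311 CPM). The same tumor ranked 16 for Foxm1 (72.7 CPM) and 15 for Ccnb1 (124 CPM). Among the 5 highest tumors of each gene, 5 high-Mki67 tumors were found for Foxm1, 4 for Top2a and for Ccnb1, 3 for Cdk1, 2 for Mcm2, 1 for Pcna and 0 for Mcm5.

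Ccnd1, cyclin D1, which activates CDK4 and CDK6 upstream of RB1, went the other way. Its level was 10.7, 11.5, 12.6, 18.2 and 13.2 CPM in the high tumors and 41.8, 24.2, 40.3, 20.2 and 30.6 CPM in the low tumors. No high tumor reached the lowest low tumor, and the log2 fold change was -1.25 ± 0.25 (adjusted p = 0.679 in edgeR). Ccnd2 had a log2 fold change of -0.62 ± 0.38 and Cdk4 of -0.18 ± 0.22, with overlapping groups. Of 21 tested genes of the pocket proteins, the MuvB core and the E2F family, 19 lay higher, and 15 did so without mouse sgp107_6627. The unadjusted p was under 0.05 for Foxm1, Mybl1, E2f2, E2f8 and Tfdp2. E2f2, an activator E2F, was at 527 CPM in sgp107_6627T2 and at 325 CPM in sgp130_6637T3, but at 136 CPM in sgp107_6627T1, and its groups overlapped.

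Of 19 tested cell cycle inhibitor genes, 12 lay higher with Mki67. Cdkn1a, which encodes the CDK inhibitor p21 and is a classic p53 target, was at 302, 426, 237, 282 and 363 CPM in the high and at 172, 229, 201, 184 and 179 CPM in the low tumors. Every high tumor lay above every low tumor in these tumors of genotype Trp53-/-, with a log2 fold change of 0.73 ± 0.18 (adjusted p = 0.695 in edgeR) and 0.49 without mouse sgp107_6627. Among the 6 middle tumors, however, the slope of Cdkn1a on Mki67 had the opposite sign (-0.74, both on log2 scales). There the lowest value, 109 CPM, was in sgp130_6638T4 and the highest, 299 CPM, in sgp130_6638T3. Of the 21 tested p53 targets 10 lay higher, and the median was -0.01. Cdkn2c, the CDK4/6 inhibitor p18, had means of 285 ± 54.9 and 156 ± 59.9 CPM. Cdkn1c, which encodes p57, was at 160 and 237 CPM in the tumors of mouse sgp107_6627 and at 22.6 to 36.9 CPM in the other high tumors, against 11.7 to 78.4 CPM in the low tumors. Its log2 fold change of 1.44 ± 0.71 became -0.23 without mouse sgp107_6627 and -0.71 with the mouse as a fixed block. Cdkn1b, which encodes p27, had a log2 fold change of 0.34 ± 0.20.

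Promoter sequence was compared between these genes and those outside the cell cycle. A RefSeq promoter (GRCm38.p6, 250 bases before to 50 after the start) was searched on both strands for the CHR words TTTGAA and TTCGAA and for the E2F words TTTCGCGC, TTTGGCGC and TTTCCCGC, counting a promoter once however many words it held or however they overlapped. Since no gene passed the adjusted test, the sets are genes with unadjusted p under 0.05. A CHR word was present in 43 of 75 promoters of cell cycle genes that were higher (57.3%), in 18.1% of promoters of other genes that were higher, in 13.1% of promoters of genes that were lower, and in 13.7% of promoters of all tested genes. An E2F word was present in 16%, 4.19%, 2.25% and 3.21% of these sets, in the same order. In all promoters of the RefSeq table the shares were 19.2% for a CHR word and 1.84% for an E2F word. Cell cycle genes that were not higher were not read as a set, so list membership and being higher with Mki67 cannot be told apart in these shares. The words are matches of letters in a short window and say nothing about binding.

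Mki67, Ncapd2 and Ckap2 are shown because they carry the CHR word that most promoters of the higher cell cycle genes held, and Neurl1b because it is a gene outside the cell cycle lists that holds the same word. Capitals mark the words found. The windows are chr7:135716330-135716629 on the minus strand for Mki67, chr6:125191537-125191836 on the minus strand for Ncapd2, chr8:22185770-22186069 on the minus strand for Ckap2 and chr17:26414609-26414908 on the plus strand for Neurl1b, each read 5′ to 3′ along the gene.
Mki67: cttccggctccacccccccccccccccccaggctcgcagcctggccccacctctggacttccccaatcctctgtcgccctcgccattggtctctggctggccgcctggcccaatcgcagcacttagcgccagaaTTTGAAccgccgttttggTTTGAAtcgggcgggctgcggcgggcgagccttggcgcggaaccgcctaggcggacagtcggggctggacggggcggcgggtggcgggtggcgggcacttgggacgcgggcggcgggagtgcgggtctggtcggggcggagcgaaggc
Ncapd2: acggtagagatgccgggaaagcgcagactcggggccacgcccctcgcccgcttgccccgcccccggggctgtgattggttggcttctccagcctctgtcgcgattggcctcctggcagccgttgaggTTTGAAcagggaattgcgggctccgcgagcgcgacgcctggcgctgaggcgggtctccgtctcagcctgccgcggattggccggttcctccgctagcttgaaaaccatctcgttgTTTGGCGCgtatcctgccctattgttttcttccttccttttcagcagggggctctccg
Ckap2: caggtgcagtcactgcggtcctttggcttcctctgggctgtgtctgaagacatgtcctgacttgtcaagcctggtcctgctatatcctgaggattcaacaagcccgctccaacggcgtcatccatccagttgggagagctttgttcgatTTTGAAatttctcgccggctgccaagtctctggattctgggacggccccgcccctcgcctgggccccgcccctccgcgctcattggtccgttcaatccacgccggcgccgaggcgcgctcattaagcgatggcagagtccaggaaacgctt
Neurl1b: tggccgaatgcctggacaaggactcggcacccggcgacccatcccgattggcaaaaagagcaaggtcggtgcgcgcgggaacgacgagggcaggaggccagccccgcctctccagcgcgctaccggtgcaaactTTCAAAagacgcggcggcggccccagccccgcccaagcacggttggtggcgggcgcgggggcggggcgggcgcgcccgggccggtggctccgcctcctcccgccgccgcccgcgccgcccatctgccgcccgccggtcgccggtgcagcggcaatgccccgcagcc
The CHR word began 116 and 98 bases before the start in Mki67, 123 in Ncapd2, 101 in Ckap2 and 116 in Neurl1b, where it lay on the other strand. The E2F word of Ncapd2 began 8 bases before the start.

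Over all 14841 tested genes, 7.04% had an unadjusted p under 0.05. Outside the cell cycle lists, 14464 genes were tested and 949 had such a p, of which 469 were higher and 480 lower with Mki67. Without both tumors of mouse sgp107_6627 there were 562 such genes, 177 higher and 385 lower. With the mouse as a fixed block, where only mice sgp107_6631 and sgp130_6637 inform the comparison, there were 694, of which 278 were higher and 416 lower, and none was called. The groups did not overlap for 93 genes outside the cell cycle lists that were higher and for 70 that were lower. Among 377 cell cycle genes, 27 that were higher did not overlap. Over all 14841 tested genes these counts were 120 higher (0.809%) and 71 lower (0.478%). How many genes would separate by chance was not tested. DESeq2 called 45 genes outside the cell cycle lists, 32 of them higher. Genes were placed outside by list membership only, and Kifc5b, the near-identical copy of Kifc1, is among these 45. The DESeq2 calls held all but Rnpep and Pgm2 of the 16 genes described next. These are the 8 of smallest p in each direction by edgeR.

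The gene of smallest p was Tubb6, a beta-tubulin of microtubules. It was at 235, 278, 169, 175 and 228 CPM in the high tumors and at 78.4, 98.5, 106, 109 and 68.5 CPM in the low tumors. Every high tumor lay above every low one, and the middle tumors had a median of 131 CPM and reached 181 CPM. The log2 fold change was 1.23 ± 0.19 (adjusted p = 0.24 in edgeR). It was 1.06 without mouse sgp107_6627, 0.72 within mouse sgp107_6631 and 1.53 within mouse sgp130_6637.

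Lonrf3, a RING-finger protein, was at 106, 92.0, 95.8, 77.9 and 91.0 CPM in the high and at 60.9, 54.6, 48.6, 59.3 and 51.3 CPM in the low tumors (log2 fold change 0.75 ± 0.14, adjusted p = 0.642 in edgeR). Rtkn2 was at 53.2, 55.3, 51.3, 41.0 and 51.9 CPM against 36.1, 24.9, 22.4, 27.2 and 28.2 CPM (0.86 ± 0.17). Neither gene overlapped between groups. Rtkn2 is also a member of the alveolar type 1 marker list, of which 8 of 9 tested genes lay higher, with a median of 0.19. Ager, a defining marker of those cells, had means of 74.7 ± 27.6 and 63.7 ± 24.4 CPM with overlapping groups, and the part of these cells in the Rtkn2 values was not tested. Phf17, also called Jade1, a subunit of the HBO1 histone acetyltransferase complex, had means of 265 ± 35.9 and 161 ± 24.1 CPM. Mcph1, microcephalin, which restrains chromosome condensation and takes part in the DNA damage response, was at 28.8 to 33.7 CPM in the high and at 14.8 to 24.4 CPM in the low tumors.

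Pard6g, a subunit of the PAR cell polarity complex, was at 41.4, 71.5, 50.3, 33.0 and 74.6 CPM in the high and at 12.2, 10.2, 23.9, 25.4 and 23.9 CPM in the low tumors. Its log2 fold change was 1.49 ± 0.33, and 0.72 with the mouse as a fixed block. The highest level of all, 85.3 CPM, was in the middle tumor sgp130_6697T1. Sdk1, a cell adhesion protein of synapses, had means of 38.0 ± 10.6 and 17.6 ± 4.58 CPM. Neurl1b, a ubiquitin ligase that acts on NOTCH ligands, was at 267, 360, 228, 178 and 364 CPM in the high and at 151, 142, 147, 161 and 101 CPM in the low tumors. The highest values in the high group were those of mouse sgp107_6627, and the log2 fold change of 0.99 ± 0.22 was 0.66 without it. The adjusted p in edgeR was 0.679 for each of Pard6g, Sdk1, Neurl1b, Rtkn2, Phf17 and Mcph1.

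Thbs1, thrombospondin-1, a secreted matrix protein that restrains blood vessel growth, was lower in the high-Mki67 tumors. It was at 65.9, 31.4, 53.6, 98.2 and 22.6 CPM in the high and at 405, 526, 122, 283 and 143 CPM in the low tumors. The groups did not overlap, the low tumors varied more than the high ones, and the log2 fold change was -2.45 ± 0.50 (adjusted p = 0.679 in edgeR). Susd5 had means of 32.2 ± 13.6 and 80.7 ± 17.9 CPM, also without overlap (-1.34 ± 0.30). Within mouse sgp107_6631 the differences were small, at -0.31 for Thbs1 and -0.16 for Susd5 on the log2(CPM + 1) scale, and within mouse sgp130_6637 they were -1.25 and -1.30. With the mouse as a fixed block the log2 fold changes were -0.88 for Thbs1 and -0.86 for Susd5.

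Syk and Zap70 encode related tyrosine kinases that signal from immune receptors. Syk was at 12.1, 11.2, 12.9, 12.1 and 11.6 CPM in the high and at 18.1, 17.2, 27.6, 29.2 and 19.7 CPM in the low tumors, with a log2 fold change of -0.91 ± 0.20. The middle tumors ran from 7.16 to 32.2 CPM, wider than both groups together, and their slope on Mki67 had the opposite sign. Zap70 was at 0.837, 0.607, 1.66, 3.18 and 0.348 CPM in the high and at 4.08, 9.31, 8.21, 4.45 and 10.9 CPM in the low tumors, with a log2 fold change of -2.48 ± 0.60. Lck, a kinase of T cells, was highest over all tumors in sgp107_6631T2 with 22.2 CPM and next in sgp130_6637T1 with 12.5 CPM. The tumor sgp130_6637T1 had the highest Zap70 among the 10, but Cd3g was at only 0.918 CPM and Cd8a at 1.63 CPM in it. Its T and NK score of 1.03 lay within the 0.91 to 1.04 of the high tumors, against 3.19 in sgp107_6631T2. The highest Zap70 of all, 12.1 CPM, was in the middle tumor sgp130_6697T2, with Lck at 7.83 CPM and Cd3g at 0.387 CPM. The part of T cells in the Zap70 values was not tested.

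Sprr1a, a precursor of the cornified envelope of squamous epithelium, was at 1.53, 0.0607, 1.25, 0.313 and 0.464 CPM in the high and at 7.49, 20.5, 2.01, 3.49 and 46.8 CPM in the low tumors. The groups did not overlap, and the low tumors ranged widely (log2 fold change -4.50 ± 1.04, adjusted p = 0.695 in edgeR). Myh7, a myosin of heart and slow muscle, had means of 7.02 ± 2.65 and 30.8 ± 23.2 CPM with overlapping groups, and within mouse sgp107_6631 the high tumor was the higher one by 0.35. Rnpep, an aminopeptidase, had means of 20.7 ± 1.90 and 33.7 ± 7.14 CPM, and sgp130_6638T5 with 22.6 CPM lay within the high group. Its slope on Mki67 among the middle tumors had the opposite sign (0.67). Pgm2, a phosphoglucomutase, had means of 26.6 ± 7.96 and 47.5 ± 7.19 CPM and did not overlap between groups.

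**Figure D2:**
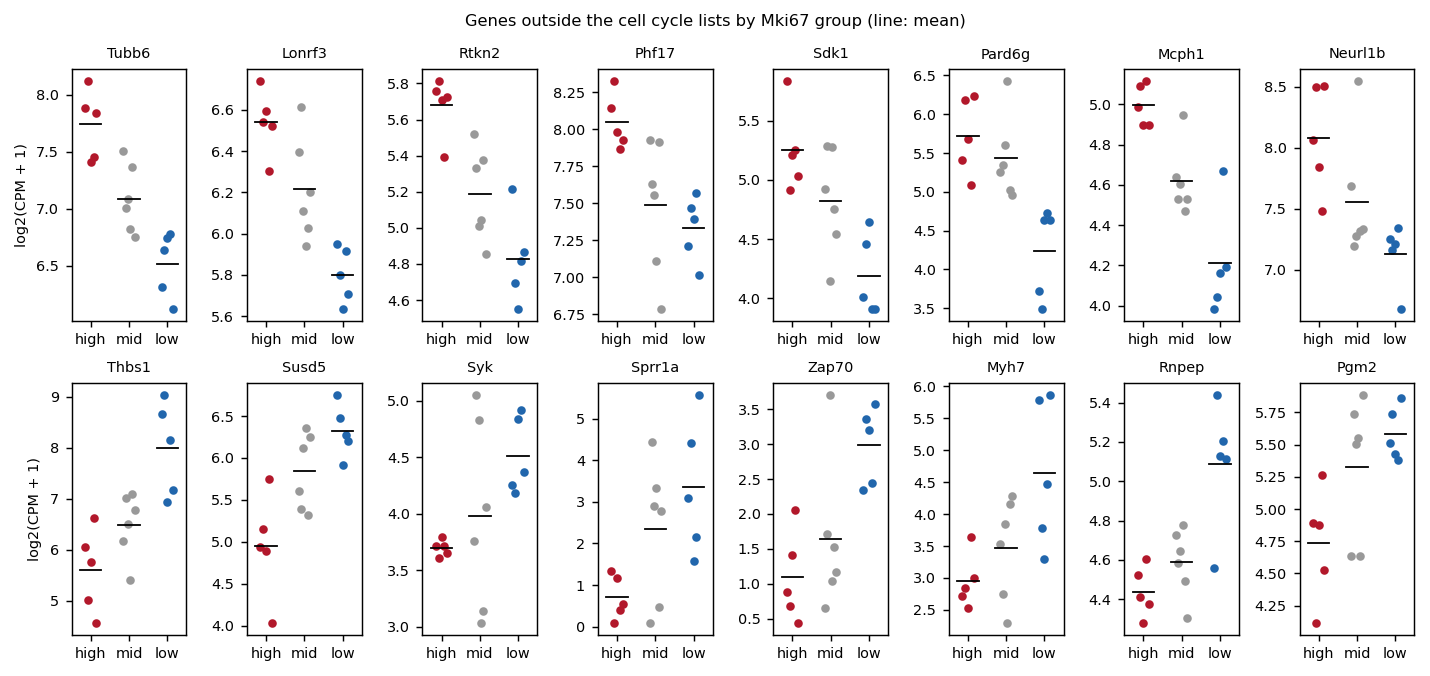
Level on the log2(CPM + 1) scale of the 16 genes outside the cell cycle lists with the smallest p, 8 higher (top row) and 8 lower (bottom row) with Mki67, in the 5 high, 6 middle and 5 low tumors. Points are tumors, lines are group means, and each panel has its own vertical range. The high and low points separate in every panel except Myh7 and Rnpep, which the choice of genes by p in the same tumors largely built in.

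The 6 middle tumors, which the choice of groups did not use, were read for the same genes. For each gene the sign of the slope of its level on log2 Mki67 among them was taken. It was positive for 90 of the 95 cell cycle genes that were higher at unadjusted p under 0.05 (94.7%) and for 338 of the 469 such genes outside the cell cycle (72.1%), against 51.6% of all tested genes. It was negative for 294 of the 480 genes outside the cell cycle that were lower (61.2%), against 48.4% of all tested genes. On the G2/M score, taken without Mki67, in place of Mki67 these shares were 95.8%, 76.8% and 71.9%. The first of them was largely fixed in advance, because 68 of the 95 genes belong to the G2/M list that makes the score. Genes move together within a tumor, so these shares rest on 6 tumors from 3 mice and carry no test. Mouse sgp130_6638 is among these 3 and also gave the low tumor sgp130_6638T5, so the middle tumors are not fully independent of the comparison. The mice sgp107_6631 and sgp130_6637 each allowed high and low tumors of 1 animal to be compared. In both mice 679 of the 1045 genes (65.0%) had the sign of the pooled comparison, against 31.2% of all tested genes. The tumors of these mice are also part of the pooled comparison that picked the 1045 genes, so a share above that of all tested genes was partly built in.

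Whether the relation of a gene to Mki67 differed between p107 and p130 tumors was tested over all 16 tumors. None of 16126 genes passed an adjusted p of 0.05 for this interaction in edgeR (2561 at unadjusted p under 0.05), nor did any with DESeq2's size factors in edgeR (2573 unadjusted) or without the filter on low counts (2833 unadjusted). The unadjusted share was larger than between high and low tumors, where 1045 of 14841 genes (7.04%) had such a p. The absence of calls does not show that the relation was the same in p107 and p130 tumors.

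Genes of growth and protein synthesis did not lie higher with Mki67. Of 47 genes of ribosome biogenesis, the assembly of ribosomes in the nucleolus, 9 lay higher, with a median log2 fold change of -0.20 (-0.25 to -0.05 when single tumors were left out, the last without sgp130_6637T1). Of 78 cytosolic ribosomal protein genes 20 lay higher, with a median of -0.11, which was 0.16 without sgp130_6637T1. Their summed level was 23200 to 25500 CPM in the high and 20000 to 41900 CPM in the low tumors. No ribosomal protein gene had an unadjusted p under 0.05, and of the ribosome biogenesis genes only Tsr1 had one, with means of 43.4 ± 4.42 and 63.2 ± 16.8 CPM. Myc, which drives ribosome production, was at 3.91 to 12.3 CPM in the high and 4.94 to 41.2 CPM in the low tumors, with the highest level in sgp130_6637T1. Mycl1 and Mycn had log2 fold changes of 0.33 ± 0.67 and 0.68 ± 0.57, and both were negative without mouse sgp107_6627, at -0.18 and -0.23.

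Of 44 genes of splicing and mRNA processing 34 lay higher, with a median of 0.15 (0.08 to 0.29 when single tumors were left out). Without mouse sgp107_6627 29 of 44 lay higher, with a median of 0.05. Hnrnpd, an RNA-binding protein that governs mRNA decay, was at 541, 695, 488, 446 and 624 CPM in the high and at 313, 411, 409, 366 and 386 CPM in the low tumors. Its groups did not overlap. Srsf4, a splicing factor, had means of 268 ± 73.8 and 175 ± 30.7 CPM. Of 29 chromatin modifier genes 20 lay higher, with a median of 0.09, among them Ezh2, the catalytic subunit of Polycomb repressive complex 2 and also an entry of the G1/S list, with means of 209 ± 67.6 and 131 ± 25.4 CPM.

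Genes of hypoxia and glycolysis, of the unfolded protein response and of sterol synthesis lay lower for the most part, while other metabolic genes did not. Of 49 genes of oxidative phosphorylation 32 lay higher, with a median of 0.06, and without mouse sgp107_6627 18 did, with a median of -0.05. Of 34 genes of nucleotide and one-carbon synthesis 17 lay higher. Of 33 genes of hypoxia and glycolysis 7 lay higher, with a median of -0.33 (-0.42 to -0.22 when single tumors were left out). P4ha2, a collagen prolyl hydroxylase, had means of 26.2 ± 9.81 and 52.8 ± 18.4 CPM, and the hypoxia-induced growth factor Vegfa had means of 69.0 ± 31.7 and 112 ± 30.6 CPM. Pfkl, a phosphofructokinase of glycolysis, was at 32.9 to 150 CPM in the high and at 106 to 164 CPM in the low tumors. Ndrg1, also induced by hypoxia, went the other way, with 117 ± 58.0 and 67.4 ± 18.9 CPM. Of 22 genes of the unfolded protein and amino acid response 4 lay higher, with a median of -0.23. Without mouse sgp107_6627 6 of 22 lay higher, with a median of -0.11. The chaperone Hspa5 had means of 485 ± 116 and 643 ± 57.4 CPM with overlapping groups. It was at 342 and 403 CPM in the tumors of mouse sgp107_6627 and at 636 CPM in the high tumor sgp107_6631T1. Of 23 sterol synthesis genes only 3 lay higher, but these included the cholesterol carrier Stard4, with 43.7 ± 7.03 against 30.0 ± 3.39 CPM.

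Neuroendocrine genes were divided. Of 35 neuroendocrine genes 20 lay higher, with a median of 0.09, and Insm1, Chga, Dll3 and Uchl1 had log2 fold changes of 0.13 ± 0.25, 0.19 ± 0.29, 0.06 ± 0.24 and -0.23 ± 0.35. Syp had 0.62 ± 0.30 and Calca, a neuropeptide gene, 0.73 ± 0.74. The 4 list members with an unadjusted p under 0.05 were all higher. One is Elavl4, a neuronal RNA-binding protein, with 713 and 374 CPM in the tumors of mouse sgp107_6627, 100 to 180 CPM in the other high tumors and 83.3 to 143 CPM in the low tumors. Another is Stmn2, a neuronal tubulin-binding protein, with 230 CPM in sgp107_6627T1 and 5.83 CPM or less in the other tumors. Without mouse sgp107_6627 13 of 35 members lay higher, with a median of -0.14. The list of NEUROD1-type and axon genes had a median of 0.65, which became -0.43 without mouse sgp107_6627. Slit1, an axon guidance ligand, shows this, with 147 and 244 CPM in the tumors of mouse sgp107_6627 and 12.6 to 34.2 CPM in the other high tumors, against 8.93 to 25.7 CPM in the low tumors. Neurod1 itself was at 9.13 CPM or less in every tumor and was not tested. Nfib, a transcription factor linked to metastasis of this cancer, had 1180 and 1740 CPM in mouse sgp107_6627 and 228 to 389 CPM in the other tumors of both groups, so that its log2 fold change of 1.36 ± 0.53 became 0.02 without that mouse. The middle tumor sgp130_6697T1 reached 4230 CPM.

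The epithelial adhesion list had 3 of 25 genes higher and a median of -0.33. Cdh1, E-cadherin, was at 26.2 CPM in sgp107_6627T1 and at 402 CPM in sgp107_6627T2, but at 856 to 1400 CPM in the other high tumors and at 756 to 1400 CPM in the low tumors. Without mouse sgp107_6627 the list's median was 0.21 and 15 of 25 genes lay higher. Zeb1 and Zeb2, repressors of E-cadherin, were at 170 and 354 CPM in sgp107_6627T1. The tumors of mouse sgp107_6627 were the lowest of the high group for both Cdh1 and Epcam, another adhesion protein of epithelium, which was at 332 and 28.5 CPM in them. Krt19, a keratin, had means of 19.1 ± 12.9 and 66.2 ± 39.1 CPM with overlapping groups.

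**Figure D3:**
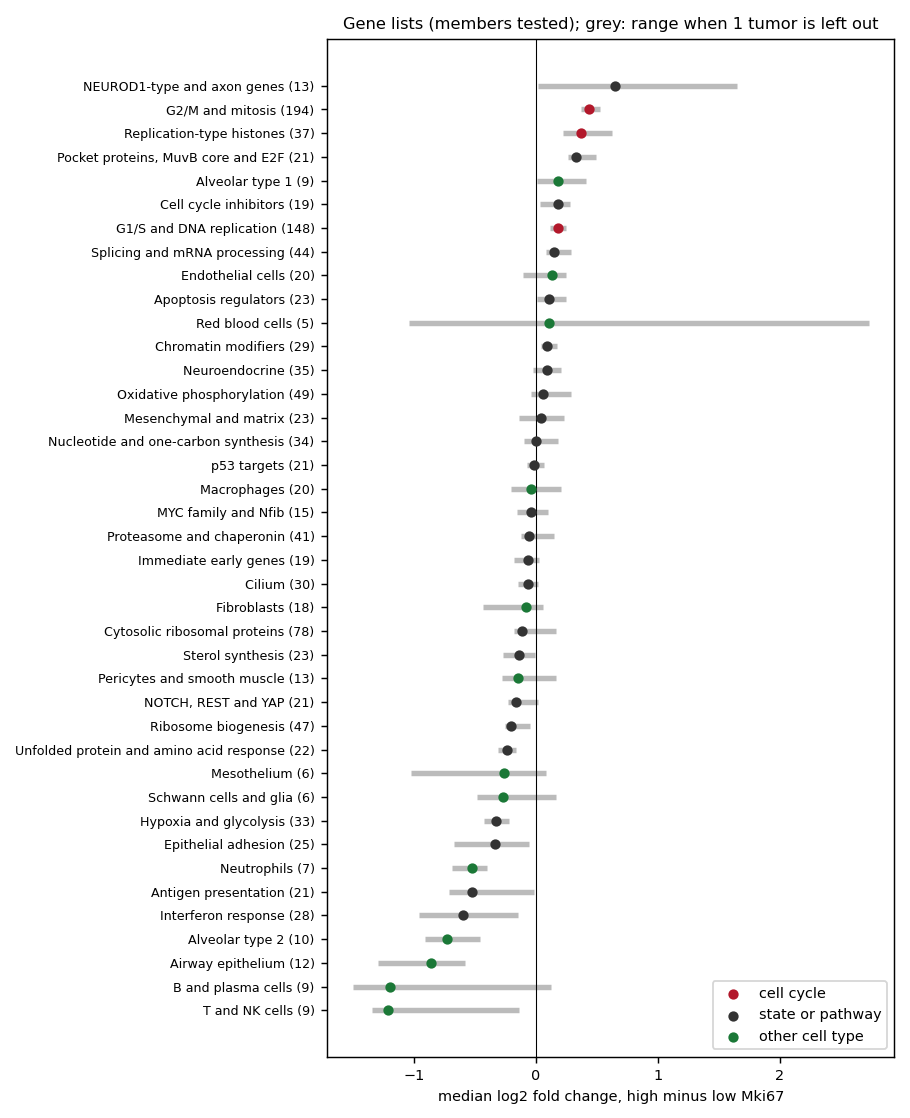
Median log2 fold change (high minus low Mki67) of each gene list with at least 5 tested members, with the number tested in brackets. Points are medians over all 10 tumors, coloured by kind of list, and grey bars run over the medians with 1 tumor left out, so that the G2/M list stays between 0.37 and 0.53 while the B and plasma cell list reaches 0.12.

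Antigen presentation, interferon and lymphocyte genes lay lower in the high-Mki67 group, and their medians came near to 0 once the low tumor sgp107_6631T2 was left out. None of 21 antigen presentation genes lay higher, and their median was -0.52, but without sgp107_6631T2 10 of 21 lay higher and the median was -0.02. B2m, the light chain of MHC class I, was at 1880 CPM in sgp107_6631T2, at 168 to 660 CPM in the other low tumors and at 201 to 638 CPM in the high tumors. The other low tumors thus covered the range of the high ones. The interferon response list had 3 of 28 genes higher and a median of -0.60, and 9 of 28 and -0.14 without sgp107_6631T2. Iigp1, an interferon-induced GTPase, was at 186 CPM in that tumor and at 3.19 to 10.3 CPM in the other 9. The T and NK cell list had a median of -1.21, and -0.14 without this tumor, and the B and plasma cell list -1.19 and 0.12. Summed over their genes, T and NK transcripts were at 25.3 to 38.8 CPM in the high and 27.1 to 192 CPM in the low tumors. Cd8a, which marks cytotoxic T cells, was at 26.7 CPM in sgp107_6631T2 and at 4.06 CPM or less in the other 9. None of 7 neutrophil genes lay higher, and their median of -0.52 was still -0.45 without sgp107_6631T2. Of 20 macrophage genes 10 lay higher, with a median of -0.04, and 14 did without that tumor, with a median of 0.20. The part of infiltrating cells in the antigen presentation values was not tested.

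**Figure D4:**
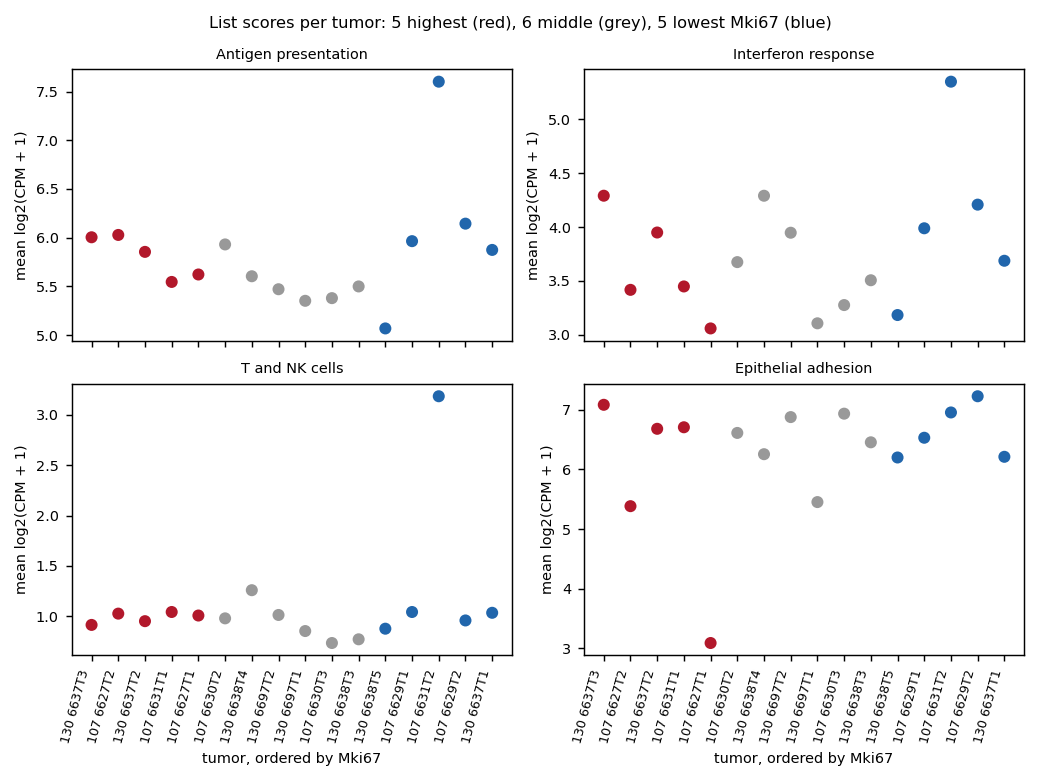
Mean log2(CPM + 1) of the antigen presentation, interferon response, T and NK cell and epithelial adhesion lists in each tumor, ordered by Mki67, with the 5 highest in red, 6 middle in grey and 5 lowest in blue. The low tumor sgp107_6631T2 stands above the others in the first 3 panels (3.19 on the T and NK score), and the high tumor sgp107_6627T1 stands below the others in the epithelial panel.

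Markers of alveolar type 2 and airway cells lay lower with high Mki67, while those of alveolar type 1 cells, given above for Rtkn2, did not. Of 10 alveolar type 2 genes 2 lay higher, with a median of -0.73 (-0.91 to -0.46 when single tumors were left out). Sftpa1 and Sftpc, surfactant proteins of these cells, had means of 30.3 ± 7.26 and 71.4 ± 43.8 CPM, and of 104 ± 29.0 and 162 ± 57.8 CPM, with overlapping groups. The summed level of the list was 345 to 623 CPM in the high and 354 to 1100 CPM in the low tumors. Of 12 airway genes 1 lay higher, with a median of -0.86, which was -0.22 without mouse sgp107_6627. Endothelial genes had a median of 0.13, and -0.26 without mouse sgp107_6627, with Pecam1, an adhesion protein of endothelium, at 47.0 ± 16.6 and 39.8 ± 9.85 CPM. Of 18 fibroblast genes 6 lay higher, with a median of -0.08, and without mouse sgp107_6627 3 did, with a median of -0.50. Albumin of liver cells was at 0.0559 CPM or less in every tumor. The part of lung and vessel RNA in the differences of other genes was not tested.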

How the data were processed

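RNA of 16 tumors was measured by mRNA sequencing. The authors deposited estimated counts per gene. RSEM 1.2.12, Bowtie 1.0.1 and the build mm9 are named per the submitters' processing notes. Which annotation was used, and whether counting used strand, is not given in the sources used here. Reads of antisense or overlapping partners may therefore be shared, and RSEM divides reads of near-identical genes by estimate. Between 42.1% and 54.6% of the values of a tumor were not whole. Of 23224 rows, 25 carry dates as names and stayed unnamed. A deposited normalized table was not used.

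Estimated counts were rounded and tested in edgeR 4.0.16 (R 4.3.3) by the quasi-likelihood test in its robust form, after filterByExpr and TMM normalization. Mki67 was removed before Benjamini-Hochberg adjustment over all genes tested (threshold 0.05). Levels are CPM with TMM factors over 16 tumors, except Mki67 for ranking (plain column sums). Errors are SE of log2 fold changes and SD of levels. List scores are mean log2(CPM + 1), with a pseudocount of 1. DESeq2 1.42.0, limma 3.58.1 (voom with tumors of 1 mouse treated as correlated), the mouse as a fixed block in edgeR, other rankings and leaving out tumors were alternatives. The fit was tested on simulated data.

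The groups, the 42 gene lists (1340 entries, of which 14 had no symbol in the table) and the tests were chosen with earlier results of these data known. Since no gene passed the adjusted threshold, the named genes are the 8 of smallest p in each direction outside the cell cycle with at least 5 CPM in the higher group, the 8 of smallest p in the cell cycle lists, and a panel of regulators (Rbl1, Rbl2, Rb1, Trp53, Myc, Mycl1, Mycn, Nfib, Neurod1, Cdkn1a, Cdkn1b and Cdkn1c). Some genes are not reported here. Outside the cell cycle, gene models without a name were skipped. All further genes were picked with their values known. Promoters are from RefSeq on GRCm38.p6, another build than that of the counts, and were matched by symbol: 10465 of 14841 tested genes had one.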

Additional observations from a re-analysis of the deposited data

Results flagged for a closer look

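Of 159 groups of 4 to 10 tumors examined (named genes, list scores and technical values by Mki67 group), 14 held a tumor far from the others by Dixon's criterion, where chance flags about 1 in 20, or 7.95 groups. No cause was tested for any of them. Among the high tumors, Rtkn2 was at 41.0 CPM in sgp107_6631T1 against 51.3 to 55.3 CPM in the others, and the fibroblast score was 4.65 in sgp107_6627T2 against 3.39 to 3.67. Among the low tumors, sgp107_6631T2 stood out by its T and NK cell score of 3.19 (others 0.875 to 1.04), its B and plasma cell score of 4.04 (others 1.5 to 1.83) and its alveolar type 1 score of 5.43 (others 4.72 to 4.87). Neurl1b was at 101 CPM in sgp130_6637T1 against 142 to 161 CPM, and Rn45s held 5.75% of counts in sgp107_6629T2 against 0.712% to 2.03%.

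Among the middle tumors, sgp130_6697T1 had the most Nfib (4230 CPM against 171 to 464), Neurl1b (374 CPM against 145 to 205) and Mcph1 (29.8 CPM against 21.2 to 23.9). Zap70 was at 12.1 CPM in sgp130_6697T2 against 0.567 to 2.28 CPM. In sgp130_6638T4, Cdkn1a was at 109 CPM against 211 to 299 CPM, and Neurod1 at 4.28 CPM against 0.0 to 0.145 CPM. Rbl1 was at 200.0 CPM in the p107 tumor sgp107_6630T3 against 64.8 to 90.4 CPM.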

How the results depend on the processing

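No gene was called at an adjusted p of 0.05 by edgeR on the chosen tumors. The count was 61 with DESeq2 (45 outside the cell cycle lists), 5 with log2 Mki67 as a covariate over all 16 tumors (1 outside), 2 with the 6 highest against the 6 lowest, 1 with tumors ranked by the G2/M score, and 0 whichever single tumor was left out. The gene called with the G2/M ranking was Ndc80, a member of the list that made the score. Members of that list were not left out, so counts with the G2/M ranking include genes that set it. The cause of the difference between tools was not tested. The 1045 genes at unadjusted p under 0.05 became 1719 with the G2/M ranking, 1640 with the covariate, 656 without mouse sgp107_6627 and 646 to 1478 when single tumors were left out, the lowest without sgp107_6627T2. Outside the cell cycle, 949 became 1521, 1501, 562 and 575 to 1373 in the same order, and 1432 with 6 against 6. Leaving out mouse sgp107_6627, the mouse as a fixed block and comparing tumors within mice were chosen after seeing the data.

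The sign of each of the 24 genes named by p held under all 24 alternatives. These genes were picked by p in tumors that the alternatives largely reuse, so this was mostly fixed in advance. Of the panel, Rbl2 reversed with 4 against 4 tumors (-0.14), without sgp107_6627T2 (-0.11), without mouse sgp107_6627 (-0.67) and with the mouse as a fixed block (-0.033), and ran from -0.11 to 0.51 when single tumors were left out. Mycl1 reversed with the G2/M ranking (-0.50), without sgp107_6627T2 (-0.39) and without mouse sgp107_6627 (-0.18), and ran from -0.39 to 1.13 in the same way. Mycn (-0.23) and Cdkn1c (-0.23) reversed without mouse sgp107_6627, Cdkn1c also with the mouse as a fixed block (-0.71), and Nfib with 8 against 8 tumors (-0.22). Of 546 list medians under alternatives, 32 in 13 lists moved by more than the spread between tumors.

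At this depth Neurod1, Cd3d and Cd3e were too low to be tested. With the mouse as a fixed block (4 residual degrees of freedom) edgeR called 0 genes, with 757 at unadjusted p under 0.05 and 694 outside the cell cycle. With tumors of 1 mouse treated as correlated (correlation 0.272), voom called 0 genes and 802 at unadjusted p under 0.05. With Mki67 CPM taken with TMM factors, sgp107_6630T2 and sgp130_6638T3 took the places of sgp107_6627T1 and sgp130_6638T5.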
